A study of Mus musculus with 12 samples.

Results

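The nitric oxide (NO) and cyclic GMP (cGMP) pathway, by which smooth muscle is made to relax, was followed through 8 genes in the colon and urinary bladder of mice with an induced knockout, in smooth muscle, of YAP (Yap1) and TAZ (Wwtr1), the transcriptional co-activators of the Hippo pathway. The 8 genes, Gucy1a1, Gucy1b1, Prkg1, Mrvi1, Pde5a, Pde3a, Pde4d, and Adcy5, were taken by their symbols from 54532 genes, and each was found in all 12 libraries. The knockout mice (Y/T KO) were floxed at both loci and carried Myh11-CreERT2, a tamoxifen-inducible Cre driven by the smooth muscle myosin promoter and carried on the Y chromosome. Controls (Ctrl) were Cre-negative floxed males (the floxed line is of mixed background), and they too were given tamoxifen. All mice were males of 5 to 7 weeks, received 1 mg of tamoxifen a day on 5 days, and gave tissue on day 7 after the first injection. There were 3 libraries of polyadenylated RNA per genotype and tissue from 9 mice in all, and 3 of the mice (Ctrl 788, Y/T KO 783, and Y/T KO 780) gave both tissues.

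NO is made from arginine by NO synthases in nerves and endothelium and diffuses into the muscle cell, where it activates soluble guanylyl cyclase, a heterodimer of the alpha subunit encoded by Gucy1a1 and the beta subunit encoded by Gucy1b1. The cGMP that the enzyme makes activates cGMP-dependent protein kinase (Prkg1), which phosphorylates IRAG (Mrvi1), a protein bound to the inositol trisphosphate receptor, and so lowers calcium release. Pde5a degrades cGMP, Pde3a degrades cAMP and is inhibited by cGMP, Pde4d degrades cAMP, and Adcy5 is an adenylyl cyclase that makes cAMP, the other cyclic nucleotide that relaxes smooth muscle.

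In outline, none of the 8 genes passed the test for a change with Y/T KO in either tissue, whereas Mrvi1, Adcy5, and Pde5a were higher, and Pde3a lower, in the bladder than in the colon in both genotypes. The call of Pde3a in Y/T KO did not hold under every alternative given below. The cyclase subunit genes lie next to each other on the minus strand of chromosome 3 (GRCm38), Gucy1b1 (ENSMUSG00000028005) at 82032006 to 82074689 and Gucy1a1 (ENSMUSG00000033910) at 82092427 to 82145789, with 17.7 kb between them. Pde5a (ENSMUSG00000053965) is on the plus strand of the same chromosome at 122728947 to 122859374. Mrvi1 (ENSMUSG00000005611) lies on chromosome 7 at 110868266 to 110982461, minus strand, and Adcy5 (ENSMUSG00000022840) on chromosome 16 at 35154877 to 35305738, plus strand. Pde3a (ENSMUSG00000041741) lies on chromosome 6 at 141249269 to 141507448, plus strand. The 2 longest genes are Pde4d (ENSMUSG00000021699), which spans 1503.5 kb on chromosome 13 at 108449948 to 109953461, plus strand, and Prkg1 (ENSMUSG00000052920), which spans 1197.5 kb on chromosome 19 at 30567551 to 31765033, minus strand. The coordinates of 7 of the genes are the same in GENCODE release M21, and those of Prkg1 differ there.

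Promoter sequences from RefSeq (GRCm38.p6), the 250 bases before a transcription start, were at hand for 7 of the 8 genes, with 10 starts in all and none for Pde3a. They were searched on both strands for the TEAD motif CATTCC, bound by the partners of YAP and TAZ, and for the CArG box, bound by serum response factor in smooth muscle genes. CATTCC was found before 1 of the 10 starts, the upstream start of Mrvi1, where its first base lies 116 bases before the start. It was present in 12.6% of all 32851 promoters of this length. No CArG box was found before the 10 starts, and 1.47% of all promoters held one. A match of letters is not a binding site, and a missing match says only that the letters are not in this window. RefSeq starts need not match the gene bounds given above. By those bounds, the windows printed for Pde5a and Gucy1a1 lie in large part inside the gene. The promoters of the genes that stood higher in the bladder and those of the cyclase pair are printed 5′ to 3′, with the TEAD motif in capitals. Mrvi1 and Gucy1a1 have 2 starts each, of which the upstream one is printed.
Mrvi1, chr7:110982462-110982711, minus strand: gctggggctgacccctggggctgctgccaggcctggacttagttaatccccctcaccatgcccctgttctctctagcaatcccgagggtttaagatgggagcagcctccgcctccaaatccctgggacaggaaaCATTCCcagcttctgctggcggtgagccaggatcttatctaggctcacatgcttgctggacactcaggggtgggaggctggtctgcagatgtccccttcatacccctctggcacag
Pde5a, chr3:122728908-122729157, plus strand: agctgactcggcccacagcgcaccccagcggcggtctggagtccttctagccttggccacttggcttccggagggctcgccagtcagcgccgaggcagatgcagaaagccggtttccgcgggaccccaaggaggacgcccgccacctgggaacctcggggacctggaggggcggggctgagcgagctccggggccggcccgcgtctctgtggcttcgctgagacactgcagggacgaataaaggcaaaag
Adcy5, chr16:35154614-35154863, plus strand: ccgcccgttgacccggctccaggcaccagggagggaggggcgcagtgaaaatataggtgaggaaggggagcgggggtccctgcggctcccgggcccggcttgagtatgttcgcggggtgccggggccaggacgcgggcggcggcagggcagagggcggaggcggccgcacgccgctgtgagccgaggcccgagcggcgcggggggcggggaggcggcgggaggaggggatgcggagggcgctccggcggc
Gucy1a1, chr3:82145651-82145900, minus strand: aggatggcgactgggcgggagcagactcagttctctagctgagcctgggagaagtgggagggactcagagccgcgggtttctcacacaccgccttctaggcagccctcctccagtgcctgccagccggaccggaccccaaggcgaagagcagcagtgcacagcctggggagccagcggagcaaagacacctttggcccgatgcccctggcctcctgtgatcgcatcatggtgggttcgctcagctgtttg
Gucy1b1, chr3:82074712-82074961, minus strand: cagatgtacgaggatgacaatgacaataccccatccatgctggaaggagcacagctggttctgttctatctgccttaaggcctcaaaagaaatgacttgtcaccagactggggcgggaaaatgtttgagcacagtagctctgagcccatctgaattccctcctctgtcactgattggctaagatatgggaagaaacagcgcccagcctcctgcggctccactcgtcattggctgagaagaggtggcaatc
They differ in base composition. The GC content was 78.0% for Adcy5, 68.4% for Pde5a, 64.0% for Gucy1a1, 59.6% for Mrvi1, and 51.2% for Gucy1b1. It was 45.2% for the start of Mrvi1 that is not printed and 61.2% for that of Gucy1a1. The median was 52.4% over all promoters and 60.4% over the 10 starts of the 7 genes.

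Values are in TPM, each transcript's share of a library's transcripts scaled for length, from libraries with 2.80 to 3.94 gigabases of aligned sequence. The tissue labels were borne out by defining markers, since the intestinal factor Cdx2 was at 0 in every bladder library and the summed TPM of 5 urothelial genes was 18.7 to 31.5 across colon and 4335 to 5715 across bladder libraries. Yap1 was at 45.8 to 54.9 TPM in Ctrl and 41.3 to 47.0 TPM in Y/T KO colon, and at 98.6 to 109.8 TPM in Ctrl and 69.4 to 72.1 TPM in Y/T KO bladder. Its log2 difference in limma was -0.175 for colon (adjusted p = 0.697). For bladder it was -0.54 (unadjusted p = 0.00025, adjusted p = 0.0625). Wwtr1 overlapped between genotypes in both tissues, with means that were higher, not lower, in Y/T KO (log2 difference 0.18 for colon and 0.24 for bladder, adjusted p = 0.73 and 0.678). Gene-level values of whole tissue include other cells and any exon that was not removed, so they do not check the labels. The summed TPM of 12 smooth muscle markers (Myh11, Acta2, Actg2, and others) was 9492 to 10685 in Ctrl and 6368 to 7513 in Y/T KO colon, and 42088 to 56158 in Ctrl and 22216 to 40409 in Y/T KO bladder. In such bulk samples, fewer cells of a type and less RNA per cell cannot be told apart.

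Among the 8 genes, Pde5a stood highest in the colon and Prkg1 lowest in every group. In Ctrl colon the order by mean rescaled TPM was Pde5a (47.5), Mrvi1 (19.1), Pde3a (17.8), Pde4d (14.2), Gucy1a1 (13.5), Gucy1b1 (13.0), Adcy5 (9.26), and Prkg1 (1.63). The 5 genes from Mrvi1 to Gucy1b1 formed a run in which each overlapped with the next over the 3 libraries, while Pde5a, Adcy5, and Prkg1 were each separate from their neighbors. In Ctrl bladder, Mrvi1 (126.2) and Pde5a (119.8) led with overlapping ranges, followed by Adcy5 (48.9), and then by Pde4d (20.5) and Gucy1a1 (18.7), which overlapped. Pde3a (12.8) and Gucy1b1 (12.7) overlapped as well, and Prkg1 (3.34) was separate. The deposited coverage is uneven between the genes. It was 0.0701 to 0.202 reads per base for Pde4d and 0.113 to 0.569 for Prkg1, but at least 4.0 for the other 6 genes, and what sets those 2 genes apart was not tested. Their places in the order rest on their TPM alone.

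**Figure D1:**
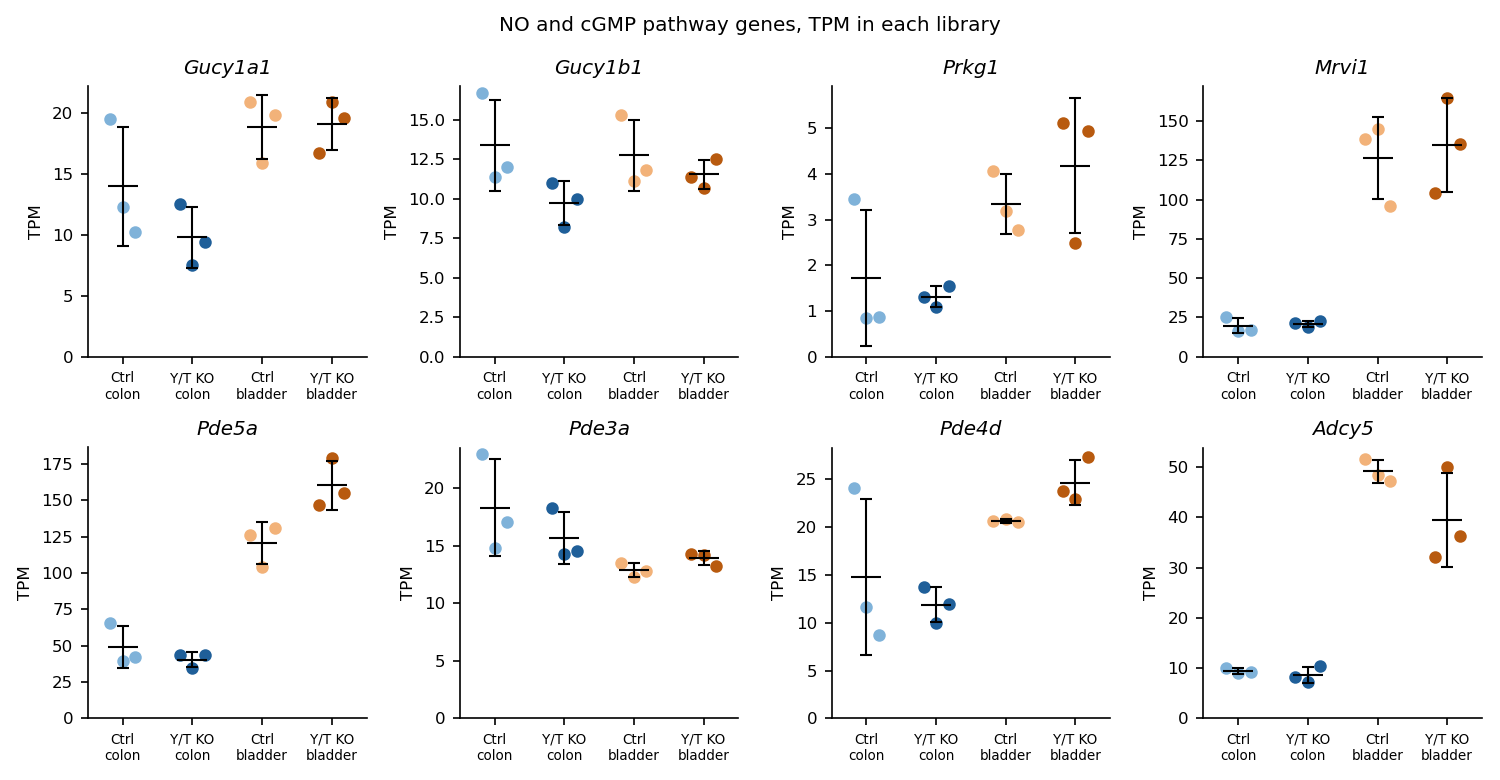
TPM (vertical axis, linear, from 0) of the 8 genes in each of the 12 libraries, by genotype and tissue (horizontal axis). Points are libraries, bars give the mean and SD of 3 libraries, and each panel has its own scale. Mrvi1, Adcy5, and Pde5a stand higher in all 6 bladder libraries than in any colon library, and 1 Ctrl colon library (mouse 786) is the highest of its group in every panel.

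The comparison of Y/T KO with Ctrl asks whether loss of YAP and TAZ in smooth muscle changed the relaxation pathway along with the muscle genes. In the colon, 0 of the 8 genes passed an adjusted p of 0.05 in limma, where 0.137% of 17500 genes did, and 0 had an unadjusted p under 0.05 (9.73% of all genes). In the bladder, 0 of 8 passed the adjusted threshold (0.302% of 18237 genes) and 1 of 8, Pde5a, had an unadjusted p under 0.05 (14.8% of all genes). The median log2 difference of the 8 was -0.16 (colon) and 0.10 (bladder), beside 0.01 and 0.00 over all genes tested. The 95% intervals given with the genes show the range of differences compatible with the 3 libraries per group. They are computed gene by gene and, unlike the calls, are not adjusted for the number of genes tested.

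Both subunits of the NO-sensitive cyclase had lower means in Y/T KO than in Ctrl colon, without passing the test. Gucy1a1, the alpha subunit, was at 10.2, 19.5, and 12.3 TPM in the Ctrl colon libraries, against 12.5, 9.40, and 7.54 TPM in those of Y/T KO. The ranges overlapped, and the log2 difference was -0.45 (SE 0.26, 95% interval -1.05 to 0.16, adjusted p = 0.616). It was -0.25 without the highest Ctrl library, that of mouse 786, and -0.28 without that of Y/T KO mouse 780. Gucy1b1, the beta subunit, was at 12, 16.7, and 11.4 TPM in Ctrl colon, against 11, 9.99, and 8.23 TPM after Y/T KO. All 3 Y/T KO values lay below the Ctrl values, as was so for 7.87% of all genes, but the log2 difference of -0.41 (SE 0.19, 95% interval -0.84 to 0.03) had an adjusted p of 0.549. In the bladder, Gucy1a1 was at 20.9, 15.9, and 19.8 TPM in Ctrl, against 20.9, 19.6, and 16.7 TPM in Y/T KO, and Gucy1b1 at 15.3, 11.1, and 11.8 TPM in Ctrl, against 10.7, 12.5, and 11.4 TPM in Y/T KO. The genotypes overlapped for both subunits, with log2 differences of 0.02 (95% interval -0.34 to 0.38) and -0.13 (95% interval -0.56 to 0.30).

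The ratio of the 2 subunit transcripts differed more by tissue than by genotype. Gucy1a1 was at 0.850, 1.16, and 1.08 times Gucy1b1 in the 3 Ctrl colon libraries and at 1.36, 1.43, and 1.67 times in the 3 Ctrl bladder libraries, with no overlap. In Y/T KO the ratio was 1.13, 0.941, and 0.916 (colon) and 1.96, 1.56, and 1.46 (bladder), again without overlap. For each tissue difference the exact two-sided permutation p was 0.10, which is the smallest that 3 against 3 libraries can give. Between genotypes the mean ratio was 1.03 ± 0.162 in Ctrl and 0.997 ± 0.119 in Y/T KO colon (SD, n = 3, exact permutation p = 0.9), and 1.49 ± 0.16 and 1.66 ± 0.263 in the bladder (exact permutation p = 0.5).

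Prkg1, the kinase that cGMP activates, varied more between libraries than between genotypes. It was at 0.873, 3.45, and 0.855 TPM in the Ctrl colon libraries, against 1.30, 1.55, and 1.09 TPM in those of Y/T KO, so that the Ctrl values lay on both sides of the Y/T KO values. The log2 difference was -0.05 (SE 0.49, 95% interval -1.19 to 1.09, adjusted p = 0.982). It turned to 0.51 (adjusted p = 0.768) without the Ctrl library of mouse 786, the one at 3.45 TPM. Of 3 markers of the interstitial cells of Cajal, that library held more Ano1 (252 TPM) and Etv1 (4.10 TPM) than the other colon libraries (68.2 to 105 TPM and 1.54 to 2.90 TPM), while its Kit, at 33.8 TPM, lay within their range of 20.3 to 48.4 TPM. The part of these cells in the result was not tested. In the bladder, Prkg1 was at 4.07, 3.18, and 2.78 TPM in Ctrl, against 2.48, 4.94, and 5.11 TPM in Y/T KO (log2 difference 0.26, SE 0.35, adjusted p = 0.765). The 3 highest bladder libraries were the 3 that held the skeletal muscle myosin Myh4, with 46.1 TPM in Ctrl mouse 784 and, among Y/T KO mice, 409 TPM in 783 and 432 TPM in 780, while Myh4 was at 0 in the other 3. Without those 3 libraries, which leaves 1 of Y/T KO, the log2 difference of Prkg1 was -0.28. The part of skeletal muscle in these values was not tested.

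Mrvi1, which encodes the kinase target IRAG, did not pass the test in either tissue, and its log2 differences were above 0 while the muscle markers were lower in Y/T KO. It was at 17.1, 25.1, and 16.7 TPM in the Ctrl colon libraries, against 21.2, 22.6, and 19.0 TPM in those of Y/T KO. The log2 difference was 0.15 (SE 0.17, 95% interval -0.24 to 0.54, adjusted p = 0.786). Bladder levels were 139, 145, and 96.2 TPM in Ctrl, against 164, 135, and 104 TPM in Y/T KO (log2 difference 0.09, SE 0.23, 95% interval -0.45 to 0.63). The genotypes overlapped in both tissues. The bladder log2 difference turned to -0.12 without Ctrl mouse 788 and to -0.04 without Y/T KO mouse 782. A gene on the opposite strand, Gm16336, shares 108 exon bases with Mrvi1 but was at 0 in every library.

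Pde5a, the cGMP-degrading enzyme that sildenafil inhibits, had the lowest p of the 8 genes. Bladder levels were 126, 104, and 131 TPM in Ctrl, against 179, 155, and 147 TPM in Y/T KO. All 3 Y/T KO libraries lay above all 3 Ctrl libraries, as was so for 10.6% of genes, and the fold was 1.33 (95% interval 1.10 to 1.61). The unadjusted p was 0.0099 but the adjusted p was 0.2, and over all alternatives that left out 1 bladder library the adjusted p ran from 0.232 to 0.462 with a log2 difference of 0.32 to 0.48. In the colon it was at 42.0, 65.9, and 39.4 TPM in Ctrl, against 43.3, 43.3, and 34.6 TPM in Y/T KO, with a log2 difference of -0.21 (SE 0.19, adjusted p = 0.72). The difference between the tissues in the effect of Y/T KO was 0.65 on the log2 scale (SE 0.23, 95% interval 0.13 to 1.16), with an unadjusted p of 0.0177 and an adjusted p of 0.302 in limma's interaction test. In that test 0 of the 8 genes and 0.0491% of 16298 genes passed the adjusted threshold.

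The phosphodiesterases that degrade cAMP did not pass the test either. Pde3a was at 17.1, 23.0, and 14.8 TPM in the Ctrl colon libraries, against 18.3, 14.5, and 14.3 TPM in those of Y/T KO, and at 13.5, 12.3, and 12.8 TPM in the Ctrl bladder libraries, against 14.2, 13.2, and 14.3 TPM in those of Y/T KO. Its log2 differences were -0.17 (95% interval -0.60 to 0.26) and 0.11 (95% interval -0.15 to 0.37). It shares 741 exon bases with Gm28523 on the opposite strand, which reached 4.24 TPM. Pde4d was at 8.75, 24.1, and 11.6 TPM in the Ctrl colon libraries, against 13.7, 12, and 9.98 TPM in those of Y/T KO, where the highest value was again that of Ctrl mouse 786. The log2 difference of -0.15 turned to 0.20 without that library. In the bladder it was at 20.6, 20.9, and 20.5 TPM in Ctrl, against 22.9, 27.3, and 23.8 TPM in Y/T KO. The 3 Y/T KO libraries all lay above the Ctrl libraries there, as was so for 10.6% of all genes. In limma the log2 difference of 0.25 (SE 0.12, 95% interval -0.04 to 0.55) had an adjusted p of 0.393. Pde4d contains the pseudogene Rps3a3 on its own strand, which reached 1894 TPM and shares no exon base with it.

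Adcy5, the adenylyl cyclase, was the least variable of the 8 genes in Ctrl colon, with 9.21, 10.1, and 9.06 TPM, whereas in the Y/T KO colon libraries it stood at 8.15, 10.4, and 7.25 TPM (log2 difference -0.12, SE 0.19, adjusted p = 0.853). In the bladder it was at 51.7, 48.5, and 47.3 TPM in Ctrl, against 50.1, 36.3, and 32.2 TPM in Y/T KO. The log2 difference was -0.34 (SE 0.16, 95% interval -0.72 to 0.04, adjusted p = 0.379), and 2 of the 3 Y/T KO libraries lay below all Ctrl libraries. Those were mice 783 and 780, which held Myh4. Without the 3 libraries that held it, which leaves 1 of Y/T KO, the log2 difference of Adcy5 was 0.04. The part of skeletal muscle in these values was not tested.

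**Figure D2:**
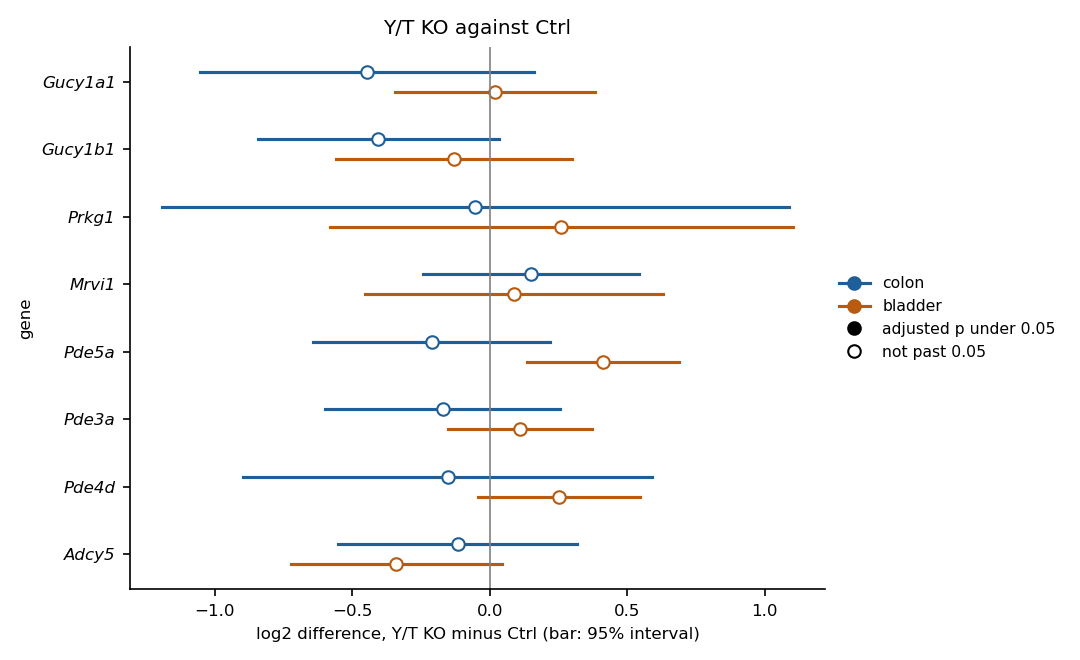
Log2 difference between Y/T KO and Ctrl (horizontal axis) for each of the 8 genes (vertical axis), in colon and bladder, with 95% intervals from limma. Open circles mark genes that did not pass an adjusted p of 0.05, which are all 8 in both tissues, and the interval of Pde5a in the bladder (0.14 to 0.69) is the one that does not include 0.

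Between the tissues, more of the 8 genes differed. In Ctrl, 3 of 8 were higher in the bladder (25.3% of 19773 genes were) and 1 of 8 was lower (25.1%). In Y/T KO, 6 of 8 were higher (25.6%) and 1 was lower (25.8%). The median log2 difference of the 8 was 0.65 in Ctrl and 1.03 in Y/T KO, beside -0.01 over all genes in both. The 12 smooth muscle markers were all higher in the bladder, with a median log2 difference of 2.11 in Ctrl and 1.87 in Y/T KO. The part of this larger share of muscle RNA in the values that follow was not tested.

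The kinase target and the adenylyl cyclase were higher in the bladder by about as much as the muscle markers. Mrvi1 was 5.36-fold higher in Ctrl bladder than in Ctrl colon (95% interval 3.91 to 7.35, adjusted p = 2.21e-06) and 5.22-fold higher in Y/T KO (3.81 to 7.16, adjusted p = 2.57e-06). Adcy5 was 4.3-fold higher in Ctrl (3.32 to 5.58, adjusted p = 1.41e-06) and 3.75-fold higher in Y/T KO (2.89 to 4.85, adjusted p = 3.16e-06). Pde5a was 2.09-fold higher in Ctrl (1.63 to 2.69, adjusted p = 0.000237) and 3.28-fold higher in Y/T KO (2.55 to 4.22, adjusted p = 6e-06). For these 3 genes, every bladder library was higher than every colon library. Over all genes this was so within Ctrl for 29.3% and within Y/T KO for 29.4%.

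Pde3a went the other way. It was 1.67-fold lower in Ctrl bladder than in Ctrl colon (log2 difference -0.74, SE 0.15, adjusted p = 0.00152) and 1.36-fold lower in Y/T KO (log2 difference -0.44, SE 0.15, adjusted p = 0.0288), on TPM rescaled over all 12 libraries. Gucy1b1 passed the test in neither genotype, with log2 differences of -0.32 (95% interval -0.73 to 0.08) in Ctrl and -0.02 (95% interval -0.43 to 0.38) in Y/T KO. Where the deposited TPM was used without rescaling, the median of all genes shifted to 0.237 in Ctrl and 0.258 in Y/T KO, Gucy1b1 in Y/T KO turned to 0.25 (adjusted p = 0.303), and Pde3a in Y/T KO no longer passed (log2 difference -0.17, adjusted p = 0.442).

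Prkg1, Pde4d, and Gucy1a1 passed the test in Y/T KO and not in Ctrl, with adjusted p-values of 0.0369, 0.0312, and 0.0253 in Y/T KO. Their log2 differences were 1.28, 0.78, and 0.70 in Y/T KO and 0.95, 0.35, and 0.21 in Ctrl. The difference between these effects is the interaction above, in which the 3 genes had adjusted p-values of 0.854, 0.659, and 0.553, so that no difference between genotypes was shown. These calls changed when single libraries were left out, and that of Prkg1 in Y/T KO was also lost with all libraries and no filter on low values (adjusted p = 0.0537). In Ctrl, leaving out the colon library of mouse 786 brought Prkg1 to 1.53 (adjusted p = 0.00505) and Pde4d to 0.72 (adjusted p = 0.00847), both past the threshold. In Y/T KO, leaving out the colon library of mouse 783 or 780 took the adjusted p of all 3 genes above 0.05, as did leaving out the bladder library of mouse 783 (adjusted p of 0.114 for Prkg1, 0.0984 for Pde4d, and 0.0729 for Gucy1a1), and 3 to 7 of the 8 genes passed over all libraries left out. Pde3a in Y/T KO was also lost without the colon library of mouse 759 (adjusted p = 0.108) or any 1 of the bladder libraries of Y/T KO (0.0604 to 0.0672).

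**Figure D3:**
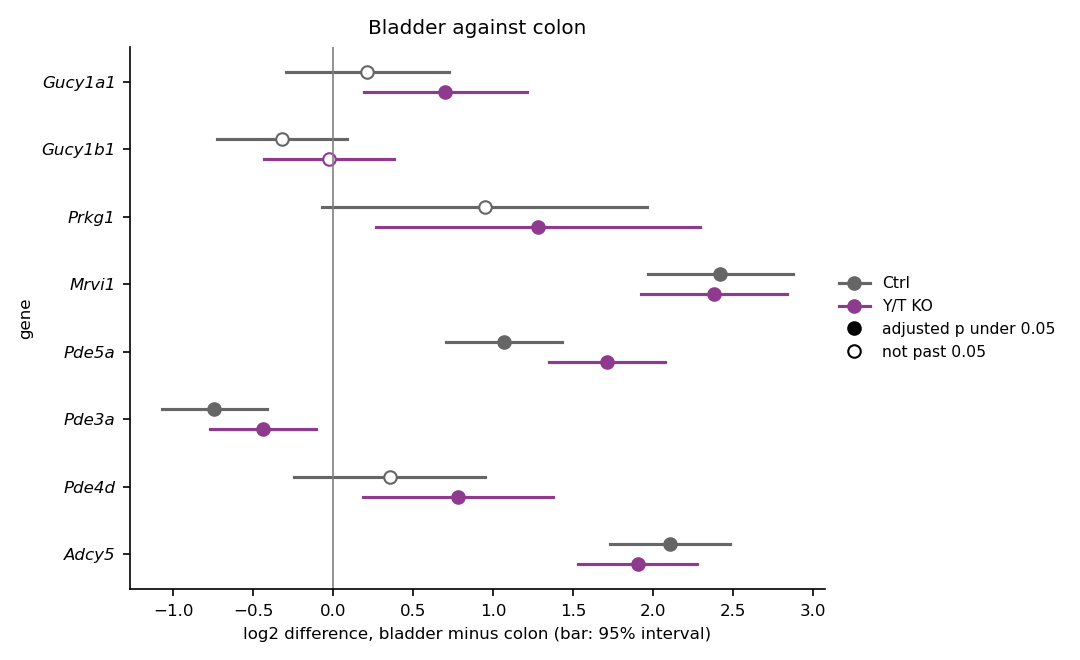
Log2 difference between bladder and colon (horizontal axis) for each of the 8 genes (vertical axis), in Ctrl and Y/T KO, with 95% intervals from limma. Filled circles mark an adjusted p under 0.05, which Mrvi1, Adcy5, Pde5a, and Pde3a reached in both genotypes, Prkg1, Pde4d, and Gucy1a1 in Y/T KO, and Gucy1b1 in neither.

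Set against the smooth muscle markers of the same library, the 8 genes behaved in Y/T KO as most genes did. The mean log2 level of the 12 markers was 8.42 ± 0.06 in Ctrl and 7.87 ± 0.18 in Y/T KO colon (SD, n = 3), a difference of -0.55, and 10.62 ± 0.14 and 9.96 ± 0.38 in the bladder, a difference of -0.66, without overlap between genotypes. In the bladder, Y/T KO mouse 782, without Myh4, stood at 10.38, close to the Ctrl range of 10.48 to 10.75, and mice 783 and 780, with Myh4, stood at 9.88 and 9.63. Without the 3 libraries that held Myh4 the bladder difference was -0.31. None of the 12 passed the adjusted test, but 8 colon (4.59% of all genes) and 7 bladder values (8.2%) had an unadjusted p under 0.05 in limma, all lower. In the study's own DESeq2 tests, Acta2, Actg2, and Tagln were among the genes called lower in both tissues. The limma fits on TPM did not call them, so a gene without a call here is not shown to be unchanged. Relative to the mean of the 12 markers, 8 of 8 genes were higher in Y/T KO in both tissues, as were 91.5% (colon) and 92.9% (bladder) of all genes. In the colon, Gucy1a1 and Gucy1b1 were 0.08 and 0.12 higher on the log2 scale, which turned to -0.16 and -0.03 without Y/T KO mouse 759, and Gucy1a1 turned to -0.13 without Ctrl mouse 788. The genotypes did not overlap for 2 of 8 in the colon (48.7% of all genes) and 5 of 8 in the bladder (44.9%). The 2 in the colon were Mrvi1, 0.67 higher on the log2 scale, and Adcy5, 0.41 higher. The 5 in the bladder were Pde5a (1.07 higher), Pde4d (0.91), Pde3a (0.77), Mrvi1 (0.74), and Gucy1a1 (0.68). Without the 3 bladder libraries that held Myh4, which leaves 1 of Y/T KO, the bladder values were 0.90 for Pde5a and 0.76 for Mrvi1, but 0.43 for Pde4d, 0.46 for Pde3a, and 0.53 for Gucy1a1, and Prkg1 went from 0.92 to 0.04 and Gucy1b1 from 0.53 to 0.19. Most genes of both tissues moved the same way relative to muscle, so these counts show nothing particular to the 8 genes.

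Between tissues, Mrvi1 and Adcy5 had the smallest differences of the 8 genes by the same measure. Relative to the muscle markers, the log2 difference between Ctrl bladder and Ctrl colon was 0.22 for Mrvi1 and -0.10 for Adcy5, and both overlapped between tissues. In Y/T KO it was 0.29 for Mrvi1 and -0.19 for Adcy5, without overlap, and -0.38 for Pde5a, so that 7 of 8 genes were lower there. The 6 genes other than Mrvi1 and Adcy5 were lower relative to muscle in the bladder in both genotypes without overlap. Their log2 differences in Ctrl were -1.14 for Pde5a, -1.25 for Prkg1, -1.85 for Pde4d, -1.99 for Gucy1a1, -2.52 for Gucy1b1, and -2.94 for Pde3a. Those other than Pde5a ran from -0.81 for Prkg1 to -2.53 for Pde3a in Y/T KO. Leaving out the 3 libraries that held Myh4 left 1 Y/T KO bladder library. The values in Ctrl and Y/T KO were then 0.05 and 0.14 for Mrvi1, -0.23 and -0.29 for Adcy5, and -1.27 and -0.68 for Pde5a. Prkg1 in Y/T KO was then at -1.93. Over all genes, 82.9% were lower relative to muscle without overlap in Ctrl and 3.12% were higher, and in Y/T KO these shares were 79.9% and 3.49%.

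**Figure D4:**
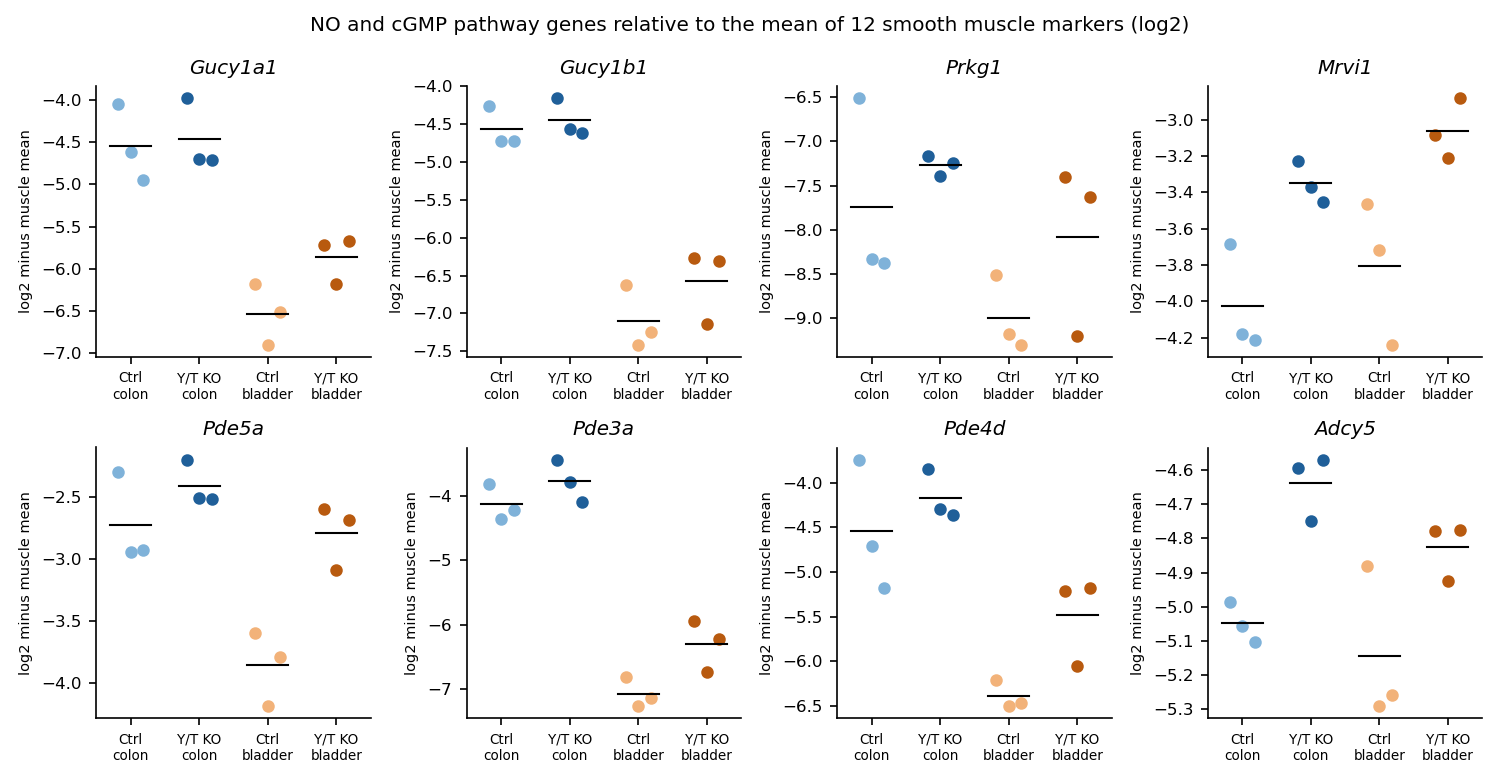
Log2 of the rescaled TPM of each of the 8 genes minus the mean log2 of 12 smooth muscle markers in the same library (vertical axis), by genotype and tissue (horizontal axis). Points are the 12 libraries, lines are means of 3, and each panel has its own scale. In Ctrl, Mrvi1 and Adcy5 overlap between tissues and the other 6 genes lie lower in the bladder, while in Y/T KO Mrvi1 lies higher and the other 7 lower, without overlap.

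The wider pathway was read from 76 further genes in 6 lists, from the enzymes that make NO to the targets of the kinase. In the colon 60 of them were tested and 0 passed the adjusted threshold, while at an unadjusted p under 0.05 limma gave 2 lower and 5 higher genes (4.59% and 5.14% of all genes). In the bladder 61 were tested and 0 passed, while 7 were lower (8.2%) and 3 higher (6.64%). In the test of the difference between tissues 0 of 57 passed, and 4 lower and 1 higher had an unadjusted p under 0.05 (12.6% of all genes, both directions). The median log2 difference of the tested genes was 0.03 (colon) and -0.02 (bladder).

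Among the sources of NO, the neuronal synthase Nos1 was at 2.46, 3.40, and 1.99 TPM in Ctrl colon, against 2.02, 1.56, and 1.06 TPM after Y/T KO (log2 difference -0.70, SE 0.31, adjusted p = 0.53). Of 6 neuronal markers, 5 had lower means in Y/T KO colon, with a median log2 difference of -0.66 and a summed level of 50.2 to 64.1 TPM in Ctrl against 39.5 to 55.2 TPM in Y/T KO. Nos1 in the bladder was at 5.77, 4.15, and 0.629 TPM in Ctrl, against 2.36, 3.86, and 4.85 TPM in Y/T KO. The low value was that of Ctrl mouse 788, in which the neuronal gene Snap25 (2.25 TPM) was also at its lowest among the bladder libraries, and the part of nerve content in the values of either tissue was not tested. The endothelial synthase Nos3 did not pass the test (log2 difference 0.41 for colon, or 0.17 without Ctrl mouse 787, and -0.22 for bladder). The inducible synthase Nos2 was at or below 0.623 TPM in 5 colon libraries and at 10.8 TPM in 1, that of Y/T KO mouse 780. Nosip, a protein that binds NO synthases, was at 54.8, 41.9, and 52.5 TPM in Ctrl bladder, against 28.0, 27.6, and 35.3 TPM after Y/T KO, with a log2 difference of -0.71 (SE 0.15, unadjusted p = 0.00266, adjusted p = 0.141).

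Several of the other phosphodiesterases and kinases had an unadjusted p under 0.05, all short of the adjusted threshold. Pde1a, a calmodulin-dependent phosphodiesterase, was at 8.79, 13.0, and 7.89 TPM in Ctrl colon, against 14.6, 15.3, and 17.8 TPM after Y/T KO, and at 23.8, 15.9, and 17.6 TPM in Ctrl bladder, against 35.1, 32.1, and 26.0 TPM after Y/T KO. The Y/T KO libraries were higher without overlap in both tissues, as was so in the bladder for 10.6% of all genes. Pde1a was named for its unadjusted p, so this separation is not further support. In limma the log2 differences were 0.75 (SE 0.20, adjusted p = 0.354) for colon and 0.71 (SE 0.20, adjusted p = 0.2) for bladder. The deposited coverage of Pde1a was low, at 0.306 to 1.0 reads per base. Pde9a, specific for cGMP, had a log2 difference of 0.79 in the colon (adjusted p = 0.51) and reached 522 TPM in Y/T KO mouse 780 against 157 to 251 TPM in the other colon libraries, and the difference was 0.38 without that mouse. In the bladder, Pde1b had a log2 difference of 0.49 and Pde2a, which cGMP stimulates, of -0.37 (adjusted p = 0.306 and 0.329). Prkg2, the other cGMP-dependent kinase, was at 7.30, 8.80, and 10.1 TPM in the Ctrl bladder libraries, against 5.09, 0.752, and 2.75 TPM in those of Y/T KO (log2 difference -1.91, SE 0.60, adjusted p = 0.239, and -1.21 without mouse 783, the lowest). The kinase subunit Prkar1a and the adenylyl cyclase Adcy7 had bladder log2 differences of -0.21 and -0.37 (adjusted p = 0.302 and 0.297).

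Of the kinase targets, Rgs2, which ends signaling by contractile receptors, was at 25.2, 25.9, and 17.8 TPM in Ctrl colon, against 42.7, 33.6, and 36.6 TPM after Y/T KO. Its bladder levels were 281, 66.3, and 275 TPM in Ctrl, against 618, 420, and 474 TPM in Y/T KO. In both tissues every Y/T KO library was above every Ctrl library, as was so in the bladder for 10.6% of all genes. Rgs2 was named for its unadjusted p, so this separation is not further support. In limma the log2 differences were 0.76 (SE 0.18, unadjusted p = 0.00282, adjusted p = 0.264) for colon and 1.53 (SE 0.57, unadjusted p = 0.0377, adjusted p = 0.306) for bladder. The bladder value was 0.84 (adjusted p = 0.266) without Ctrl mouse 785, the library at 66.3 TPM. Mylk, the myosin light chain kinase, had a log2 difference of -0.53 in the colon (SE 0.16, adjusted p = 0.4) and Pln, phospholamban, of -0.89 (SE 0.27, adjusted p = 0.405). Vasp, an actin regulator, had a log2 difference of 0.41 for colon and -0.29 for bladder, and its test of the difference between tissues gave -0.67 (SE 0.20, unadjusted p = 0.00544, adjusted p = 0.247). Among the peptides and receptors of the membrane-bound guanylyl cyclases, Guca2b (uroguanylin) had a log2 difference of 0.97 in the colon (SE 0.30, adjusted p = 0.424), or 0.61 without Ctrl mouse 786, and Nppc, C-type natriuretic peptide, of -2.39 in the bladder (SE 0.92, adjusted p = 0.307), where it stayed at or below 1.78 TPM. The natriuretic peptide receptors Npr1 and Npr2 had adjusted p-values of 0.878 and 0.412 in the bladder and 0.836 and 0.933 in the colon.

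**Figure D5:**
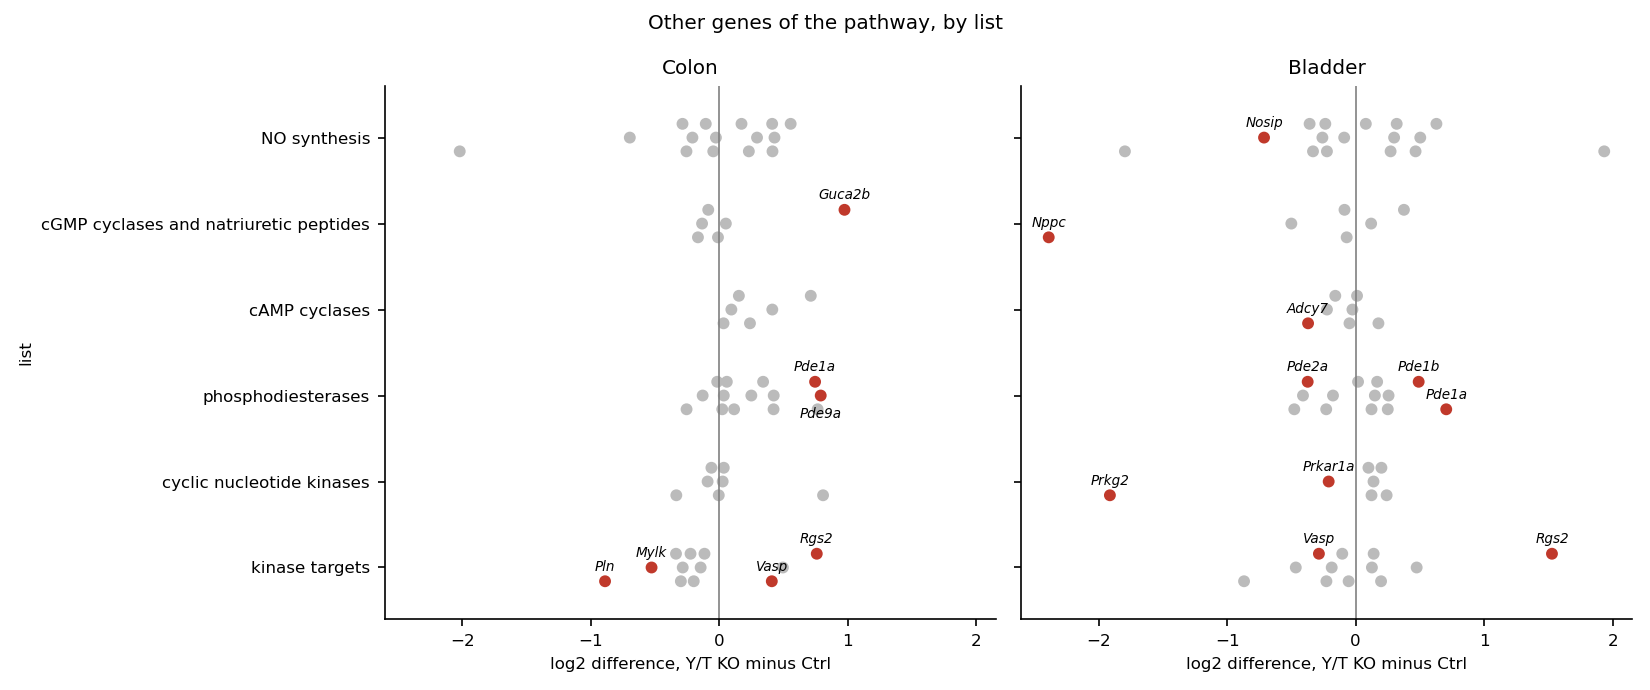
Log2 difference between Y/T KO and Ctrl (horizontal axis) of the other pathway genes that were tested, in 6 lists (vertical axis), with a panel for each tissue. Each point is a gene, and red points with names had an unadjusted p under 0.05, 7 for colon and 10 for bladder, none of which passed after adjustment. Points are set apart within a list only so that they can be seen.

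Between tissues, 15 of 64 tested pathway genes outside the 8 were lower in Ctrl bladder than in Ctrl colon and 35 were higher (25.1% and 25.3% of all genes), with a median log2 difference of 1.16. In Y/T KO, 13 were lower and 32 higher (25.8% and 25.6% of all genes), with a median of 0.82. The genes that were lower were led by the guanylin system of the intestinal epithelium. Guca2a (guanylin) was at 1391 to 1855 TPM in Ctrl colon and 1.09 to 3.18 TPM in Ctrl bladder, and its receptor Gucy2c at 132 to 158 TPM and 0.059 to 0.13 TPM. Guca2b was at 16.2 to 31.9 TPM in Ctrl colon and listed at 0 in 5 of 6 bladder libraries. Pde8b and Ddah1, which removes an inhibitor of NO synthases, were 9.77-fold and 9.35-fold lower in Ctrl bladder (adjusted p = 4.52e-07 and 7.06e-05).

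The kinase targets as a list were higher in the bladder, with 10 of 12 passing in Ctrl (25.3% of all genes) and 11 of 12 after Y/T KO (25.6%), and median log2 differences of 1.57 and 1.56. Several of them are themselves smooth muscle genes. Mylk was 6.51-fold higher in Ctrl bladder (adjusted p = 1.44e-07), Rgs2 6.33-fold (adjusted p = 0.000583), and Itpr1, the receptor that IRAG binds, 5.24-fold higher in Y/T KO (adjusted p = 4.45e-07). Vasp was the 1 target that was lower, with a log2 difference of -1.57 in Ctrl. Prkg2 was 11.6-fold higher in Ctrl bladder (adjusted p = 0.00422), Adcy1 7.82-fold (adjusted p = 5.38e-06), and Arg2, an arginase that competes with NO synthases for arginine, 7.61-fold (adjusted p = 1.29e-05).

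The genes whose pattern over the 12 libraries was most like that of Gucy1a1 and Prkg1 were sought among 16297 others by the root mean square difference of centered log2 values. For Gucy1a1 these were Man1a (0.116), Ncor1 (0.122), Ccdc66 (0.128), and AW549877 (0.133). For Prkg1 they were Klhl4 (0.253), Rbm41 (0.259), Cpeb3 (0.262), Cyyr1 (0.268), and Zfp871 (0.278). The nearest gene of Prkg1 was less close than that of Gucy1a1, and none of those named belongs to the pathway lists. The libraries share tissue, mice, and depth, so the closeness is a description only.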

How the data were processed

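The 12 libraries were grouped by tissue and genotype as labelled. According to the labels and the study's methods, RNA of tissue homogenates was isolated with RNeasy, stranded TruSeq libraries were run on a NextSeq instrument, and reads were aligned to GRCm38 with HISAT2 and quantified with StringTie; versions are not given in the sources used here. The authors' deposited tables hold, per gene, TPM, FPKM (fragments per kilobase, scaled to library depth), and coverage (a signal, mean reads per base). The read counts behind the authors' own DESeq2 tests were not used here. Aligned bases per library were read from the modal quotient of coverage and FPKM. The depth of a single gene is not known, so the spread between mice is the only error used.

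TPM rows were summed by gene ID and rescaled by size factors (median of ratios), within tissue for the genotype comparisons and over 12 libraries otherwise. A gene was kept where 3 or more libraries reached 0.5 TPM (of the 6 of a tissue, of all 12 for tissue differences, and in both tissues for the interaction). All 8 genes passed. A pseudocount of 0.1 was added and log2 values were fitted with limma 3.58.1 in R 4.3.3 (lmFit, eBayes with trend and robust options), and p-values, all two-sided, were adjusted by Benjamini-Hochberg over all genes tested. All folds derive from log2(TPM + 0.1), so those of low genes are understated. The scripts were tested on simulated data. Other tools were Python 3.11.15, pandas 2.3.3, scipy 1.17.1, and matplotlib 3.10.9.

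The 8 genes, the lists, and the marker genes were chosen with earlier results of these data known. The other pathway genes named are those with an unadjusted p under 0.05 for genotype in a tissue (at most 10 a tissue), Nos1, Nos2, Nos3, Npr1, Npr2, and Prkg2, and, for tissue, up to 5 called genes a direction with the largest log2 difference. Genes outside this rule (Yap1, Wwtr1, Myh4, Ano1, Etv1, Kit, Snap25, Hspb6, and Vasp between tissues) were named after their values were seen. Some genes are not reported here. The same mouse gave both tissues for 3 of the 9 mice, which pairs those libraries. Deviations from group means correlated with a mean r of 0.034 in the same-mouse pairs and -0.00686 in 15 pairs of different mice of 1 genotype, and the mouse as a block was an alternative. The alternatives were a pseudocount of 0.5 or 1, no filter, a mean TPM of at least 1, TPM as deposited, FPKM, limma without trend and robust options, all 12 libraries in one fit, the block, and leaving out each library. Leaving out the 3 bladder libraries with Myh4 was added after the data were seen.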

Additional observations from a re-analysis of the deposited data

How the results depend on the processing

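The 8 genes gave 0 calls for genotype and for the interaction under every alternative run, and 4 calls between tissues in Ctrl under every alternative that kept all libraries. For genotype in the colon the count over all genes was 24, and it was 6 (2 lower, 4 higher) with no filter, 75 with all 12 libraries in one fit, and 74 with the mouse as replicate block, and it ran from 5 to 63 when 1 library was left out. In the bladder the count was 55, and 11 to 51 when 1 library was left out. The interaction count was 8, and 13 with no filter and 6 to 28 when 1 library was left out. The block changed no call of the 8 genes, and the adjusted p of Pde5a in the bladder with the block was 0.351. With TPM as deposited, Gucy1b1 between tissues in Y/T KO turned to 0.25 and Prkar1a in the colon to -0.01. Without the 3 bladder libraries that held Myh4, which leaves 2 Ctrl and 1 Y/T KO bladder library, the last assumed to vary like the others, the bladder count was 2, the count between tissues in Y/T KO was 6638, and 3 of the 8 genes passed there. The log2 difference in the bladder then turned to -0.28 for Prkg1, 0.04 for Adcy5, 0.09 for Mylk, and 0.23 for Npr1. The interaction turned to -0.21 for Prkg1, 0.32 for Mrvi1, and 0.17 for Adcy5, and 1 other pathway gene, Hspb6, passed it (log2 difference -2.29, adjusted p = 0.0366), a call made by the 1 Y/T KO bladder library left, mouse 782, with 66.6 TPM of Hspb6 against 341 and 404 TPM in the 2 left out.

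When 1 library was left out, some signs turned, and not all of these values were near 0. Adcy7 in the colon was at 0.56 to 0.71 over the alternatives that kept all libraries, and at -0.08 without Ctrl mouse 787. In the colon the log2 difference ran from -0.34 to 0.51 for Prkg1, -0.44 to 0.20 for Pde4d, -0.08 to 1.27 for Adcy7, -0.01 to 0.06 for Prkar1a, and -0.03 to 0.12 for Npr2. In the bladder it ran from -0.10 to 0.12 for Gucy1a1, -0.22 to 0.03 for Gucy1b1, -0.12 to 0.26 for Mrvi1, -0.48 to 1.06 for Nos1, -0.53 to 0.00 for Nos2, and -0.20 to 0.08 for Npr1. The interaction ran from -0.25 to 0.14 for Mrvi1 and -0.24 to 0.68 for Prkg1. Gucy1b1 between tissues in Y/T KO ran from -0.14 to 0.07, and 3 to 7 of the 8 genes passed there. The cause of these changes was not tested.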
